A study of Rattus norvegicus with 18 samples.

Results

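Apln, Prss35, Scn10a, Gfra1, Endog and Sbk2 are 6 genes of 26612 gene names on the array, followed here in the adrenal glands of 3 rat strains. They were chosen by their measured log2 differences from WKY: earlier results of these data had shown them far lower in SHR and SHRSP at one age or both. Those differences are therefore given as a description, with no test. Every probe that carries one of the 6 names was used, 7 probes in all, and all 6 genes passed the filter on dim probes. Total RNA came from adrenal glands of untreated WKY, SHR and SHRSP rats aged 3 or 6 weeks. There were 6 groups, with 3 biological replicates each according to the labels and 1 array per sample, 18 in all. SHR rats develop high blood pressure without treatment, the SHRSP substrain also develops strokes, and WKY rats, with normal blood pressure, are their usual controls. The labels used here do not state the sex of the rats. The comparisons follow from the strains and ages: how the hypertensive strains differ from WKY, how SHRSP differs from SHR, and how each strain differs between the ages.

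The 6 genes belong to different systems. Apln encodes apelin, a secreted peptide that acts on the receptor Aplnr, widens blood vessels and counters angiotensin II. Gfra1 encodes the co-receptor that binds the neurotrophic factor GDNF and presents it to the receptor kinase Ret, a pathway that sympathetic and chromaffin cells use. Scn10a encodes the voltage-gated sodium channel Nav1.8, best known from sensory neurons. Prss35 encodes a secreted protein of the trypsin-like serine protease family that lacks the usual catalytic serine. Endog encodes endonuclease G, a mitochondrial nuclease that can cut nuclear DNA in cell death. Sbk2 encodes a kinase of the SH3-binding domain family known from atrial muscle.

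The array reads each transcript through a 60-base probe, and the last 30 bases of each are shown because they fix which stretch of the transcript each value below stands for. Capitals mark the hexamer ATTAAA, a variant polyadenylation signal, which only the Scn10a probe holds among the 7 (11.2% of all 30367 probes hold it or AATAAA). The exon that each probe reads is not stated in the file headers.
Apln: gacaaatgttgtcttcagccataaatacat
Gfra1: gatagtgatttcggaaaggatggtctcgct
Scn10a: tgagtcggccATTAAAattaatatttttaa
Prss35: gacctttatggaaaatatgaaggtttacag
Endog: taccaggttattgggaagaaccacgtggca
Sbk2 probe 1: agggttggttttgacccctgaaggaatgac
Sbk2 probe 2: tatctaggccaaccctggaagcagagggag
On the rn4 assembly named in the file header, the Apln probe lay at chrX:134387384-134387443 on the minus strand, and it was printed on the array as 10 spots, whose log2 signals had a median SD of 0.06 within an array. The Gfra1 probe spanned 802 bases at chr1:264616404-264617205 on the minus strand, longer than the probe itself. Scn10a was read at chr8:124578227-124578286 on the minus strand and Prss35 at chr8:92024378-92024437 on the plus strand. The Endog probe lay at chr3:9187223-9187282 and the Sbk2 probes at chr1:67620260-67620319 and chr1:67619367-67619426, all on the plus strand.

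Levels below are log2 of the processed signal over the 75th percentile of the same array, which ran from 2092 to 2602, and a level of one probe cannot be set against that of another. Between 77.8% and 84.8% of spots lay well above background, none was saturated, and 20859 gene names were tested. No spot of the 6 genes was marked as an outlier. The labelled tissue was borne out by its markers: 14 of 14 adrenal cortex genes and 14 of 15 chromaffin genes were well above background on all 18 arrays. SHR replicate 2 at 3 weeks stood apart in kidney and liver markers, with a summed level (signal over the 75th percentile, added over the list) of 86.4 against 0.267 to 2.91 on the other arrays, and SHR replicate 3 at 3 weeks in neuron markers, at 15.8 against 2.66 to 5.44. In bulk tissue, fewer cells of a type and less RNA per cell cannot be told apart.

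All 6 genes were lower in SHR and in SHRSP than in WKY at both ages, and in each of the 4 comparisons the highest array of the hypertensive strain lay below the lowest WKY array. This separation is what the genes were chosen for. Among all genes tested, all 3 arrays lay below all 3 of WKY for 21.7% in SHR and 19.6% in SHRSP at 3 weeks, and for 15.9% and 17.2% at 6 weeks. The sizes differed between the genes. The median log2 difference over the 6 was -3.52 in SHR and -3.94 in SHRSP at 3 weeks, and -3.25 and -4.60 at 6 weeks, while the median over all genes stayed between -0.01 and 0.09. Without SHR replicate 2 at 3 weeks the 6 differences from WKY in SHR at that age ran from -4.28 to -1.48, and without replicate 3 from -4.40 to -1.43. Chromaffin markers were higher than in WKY in 7, 9, 10 and 9 of 15 genes (SHR and SHRSP at 3 weeks, then at 6 weeks) and lower in 1, 1, 1 and 0. Their summed level was 102 to 106 in WKY, 126 to 146 in SHR and 148 to 166 in SHRSP at 3 weeks, and 81.5 to 89.5, 135 to 159 and 130 to 161 at 6 weeks, and its part in the results was not tested. Among all genes 9.02%, 14.8%, 16.2% and 11.1% were called higher in these comparisons and 9.2%, 11.4%, 13% and 12.8% lower. Other marker lists held calls too, in the same order, to be read against these shares. Of 14 adrenal cortex markers 4, 5, 6 and 6 were higher and 0 lower, and of 10 macrophage markers 0, 6, 3 and 1 were higher and 0 lower. Of 10 zona glomerulosa markers 0, 3, 2 and 3 were higher and 1, 1, 1 and 0 lower. At 6 weeks the summed macrophage level was 17.1 to 24.6 in WKY, 35.9 to 40.4 in SHR and 24.4 to 38.2 in SHRSP, and that of zona glomerulosa 20.9 to 25.8, 34.4 to 38.1 and 28.3 to 37.0. Fat markers were higher in 2, 2, 0 and 0 of 9 and lower in 0, 0, 2 and 0, and no Schwann cell marker was called among 7. The part of these lists in the results was not tested either.

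**Figure D1:**
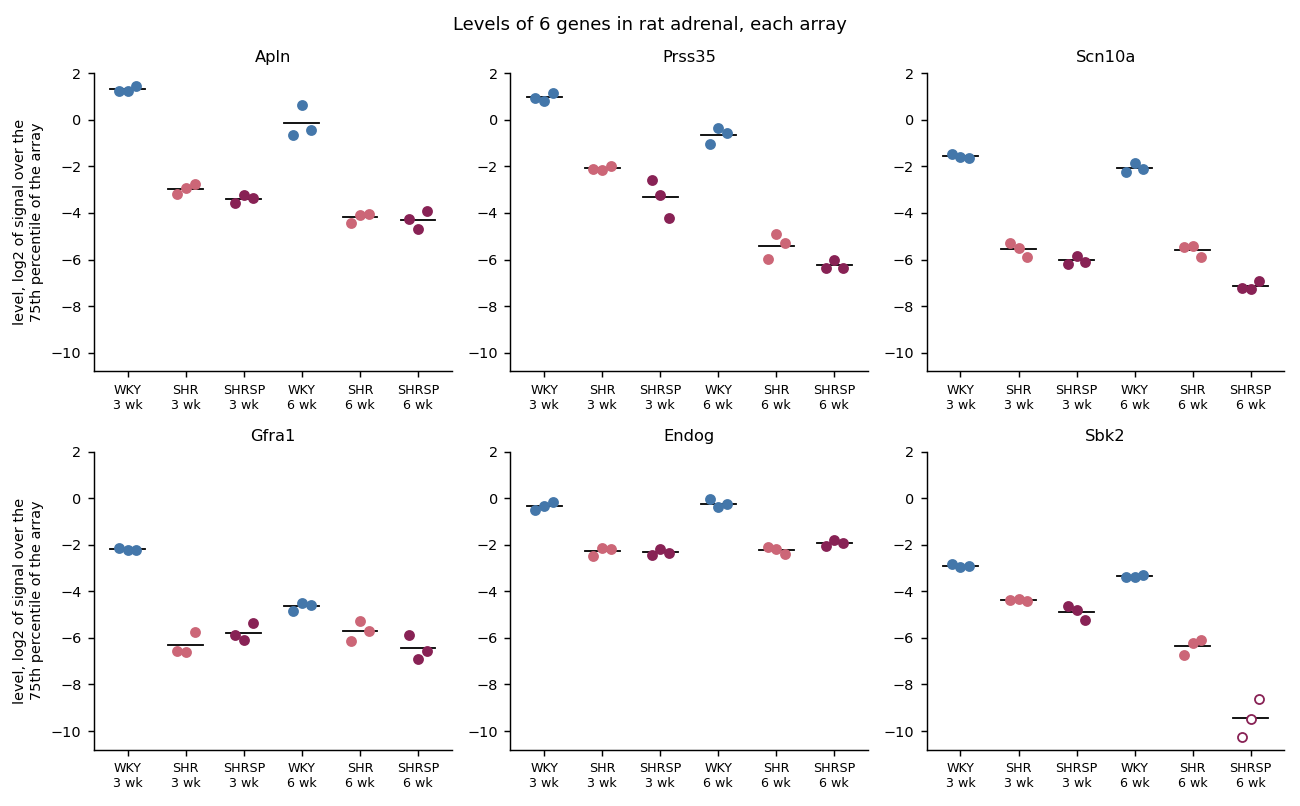
Level of each gene (log2 of the signal over the 75th percentile of the array) on each of the 18 arrays, by strain and age, with the group mean as a line and open symbols where the spot was not well above background. The WKY arrays lie above those of SHR and SHRSP of the same age in each panel, and Sbk2 in SHRSP at 6 weeks, at -10.26 to -8.63, is the only group with no array well above background.

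Apln, the ligand, ranked 4, 4, 7 and 7 from the lowest difference among all genes tested in the 4 comparisons with WKY. It stood 19.3-fold lower in SHR and 26.0-fold lower in SHRSP than in WKY at 3 weeks, and 16.4-fold and 17.7-fold lower at 6 weeks. In WKY the Apln level was 1.23, 1.26 and 1.45 at 3 weeks and -0.64, 0.63 and -0.42 at 6 weeks. In SHR it was -3.19, -2.93 and -2.75 at 3 weeks and -4.42, -4.09 and -4.03 at 6 weeks, and in SHRSP -3.55, -3.25 and -3.37, then -4.27, -4.69 and -3.90. Both hypertensive strains lay close together and far under WKY, and in WKY at 6 weeks replicate 2 stood above the other 2 arrays. The log2 differences from WKY were -4.27 and -4.70 at 3 weeks and -4.04 and -4.14 at 6 weeks (SE 0.27, n = 3 arrays per group).

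With age Apln fell in each strain. The log2 change from 3 to 6 weeks was -1.46 ± 0.27 in WKY (limma adjusted p = 0.00314), -1.22 ± 0.27 in SHR (adjusted p = 0.00406) and -0.90 ± 0.27 in SHRSP (adjusted p = 0.0221). The call in SHRSP was lost without replicate 2 or 3 at 3 weeks or replicate 2 at 6 weeks, and the call in WKY when its 6 arrays were fitted alone (adjusted p up to 0.102 and 0.0645). Of 15 endothelial markers 3, 3 and 7 were lower with age in WKY, SHR and SHRSP and 0, 0 and 1 higher. Of 9 fat markers 0, 7 and 4 were lower and 0 higher. Other lists held calls too: of 14 adrenal cortex markers 4, 1 and 5 were lower and 1, 3 and 2 higher. Of 7 Schwann cell markers 3, 3 and 1 were lower and 0, 1 and 0 higher. Of 10 zona glomerulosa markers 1, 2 and 4 were lower and 0, 0 and 2 higher. Of 15 chromaffin markers 3, 3 and 1 were lower and 0, 0 and 1 higher. Among all genes 7.17%, 14.2% and 18.5% were called lower and 5.15%, 15.1% and 10.5% higher. The part of these lists in the age changes of the 6 genes was not tested. The difference of Apln between SHRSP and SHR did not pass the test: it was -0.43 at 3 weeks (95% interval -1.01 to 0.15) and -0.11 at 6 weeks (-0.69 to 0.47). From high to low, the group means ran WKY at 3 weeks, WKY at 6 weeks, SHR and SHRSP at 3 weeks, SHR and SHRSP at 6 weeks, and only the last pair overlapped.

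The other genes of the apelin system were called about as often as genes at large. Of 15 tested, 2 were higher and 2 lower in SHR at 3 weeks, 2 and 1 in SHRSP at 3 weeks, 1 and 4 in SHR at 6 weeks, and 2 and 2 in SHRSP at 6 weeks. Over all genes, 18.2%, 26.2%, 29.2% and 23.9% were called in these comparisons, and the medians of the list lay between -0.05 and 0.01. The receptor gene Aplnr was lower in SHR at 3 weeks (-0.52 ± 0.12, adjusted p = 0.00899) and higher in SHRSP at 6 weeks (0.43 ± 0.12, adjusted p = 0.0186), with values of -0.25 and -0.33 in the other 2 comparisons that did not pass. Between the hypertensive strains Aplnr was higher in SHRSP at 6 weeks by 0.76 ± 0.12 (adjusted p = 0.000831). Mef2c, a transcription factor of muscle and endothelium, was lower than in WKY by -0.71, -1.13 and -1.24 in SHR and SHRSP at 3 weeks and SHR at 6 weeks (SE 0.13). Gnai3, an inhibitory G protein subunit, was higher in the same 3 comparisons by 0.68 to 1.01 (SE 0.15). Mme, neprilysin, a protease that degrades apelin and other peptides, was lower at 6 weeks in SHR (-0.31) and SHRSP (-0.39), both with SE 0.08. Of 15 endothelial markers, all well above background on every array, 3, 6, 5 and 3 were higher and 1, 1, 1 and 2 lower than in WKY in the order above. The second ligand of Aplnr, Apela, was not analysed here, as no probe carried its name.

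Gfra1, the GDNF co-receptor, differed most at 3 weeks. It was 17.5-fold lower in SHR and 12.1-fold lower in SHRSP than in WKY at that age, but 2.09-fold and 3.48-fold lower at 6 weeks. The Gfra1 level in WKY was -2.12, -2.21 and -2.23 at 3 weeks and -4.84, -4.50 and -4.57 at 6 weeks. In SHR it was -6.56, -6.63 and -5.77 at 3 weeks and -6.13, -5.28 and -5.68 at 6 weeks, and in SHRSP -5.86, -6.10 and -5.38, then -5.86, -6.90 and -6.55. The gap to WKY was smaller at 6 weeks, where WKY was low and SHR and SHRSP were at about their levels of 3 weeks. The log2 differences were -4.13 and -3.59 at 3 weeks and -1.06 and -1.80 at 6 weeks (SE 0.29). With normexp background correction they were smaller, at -2.65, -2.41, -0.53 and -0.90.

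With age Gfra1 fell in WKY, by 2.45 ± 0.29 on the log2 scale (limma adjusted p = 0.000111). The change was 0.62 in SHR (95% interval -0.00 to 1.24) and -0.65 in SHRSP (-1.27 to -0.04), neither called, and the difference between these changes was -1.27 ± 0.41 (adjusted p = 0.0578, from 0.0216 to 0.139 over the alternatives). It passed with slide as a block (adjusted p = 0.0427), with slide as a random block (0.0247), with normexp background correction (0.0297), and without SHR replicate 3 at 3 weeks, SHR replicate 1 at 6 weeks or SHRSP replicate 1 at 6 weeks. How far the change in WKY differed from these was part of the choice of the gene and was not tested. The Gfra1 groups other than WKY overlapped with their neighbours in the order of levels, from SHR at 6 weeks down to SHRSP at 6 weeks. SHRSP minus SHR was 0.54 at 3 weeks and -0.74 at 6 weeks, with adjusted p of 0.305 and 0.106.

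The ligand of this receptor moved the same way against WKY. Gdnf was lower in each of the 4 comparisons, by -1.64 in SHR and -1.08 in SHRSP at 3 weeks and by -1.40 and -0.96 at 6 weeks (SE 0.28, limma adjusted p from 0.000953 to 0.0218). Its level was -5.62 to -5.43 in WKY at 3 weeks against -7.50 to -6.84 in SHR and -6.72 to -6.52 in SHRSP, and none of these arrays overlapped. At 6 weeks 2 of 3 SHR arrays had Gdnf well above background. The signalling kinase of the complex, Ret, did not pass in any of them, with values of 0.49, 0.81, 0.51 and 0.25 (SE 0.32). Gab1, an adaptor downstream of Ret, was lower in all 4 by -0.67 to -1.22, and Grb2, another adaptor, was higher in all 4 by 0.43 to 0.62. Artn, the ligand artemin, was higher at 3 weeks only, by 0.58 in SHR and 0.74 in SHRSP, and was at 0.29 in both at 6 weeks. Gfra2, the co-receptor for neurturin, passed in none of the 4. Of 16 genes of the GDNF family tested, 4 were higher and 2 lower in SHR and 2 and 2 in SHRSP at 3 weeks. At 6 weeks the counts were 1 and 3 in SHR and 2 and 3 in SHRSP. Medians were 0.24, 0.02, -0.07 and -0.00. Over all genes, 18.2%, 26.2%, 29.2% and 23.9% were called in these comparisons. Counts of the related and marker lists below, against WKY, are to be read against the same shares.

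Scn10a, the sodium channel, was 15.9-fold lower in SHR and 22.2-fold lower in SHRSP than in WKY at 3 weeks, and 11.4-fold and 33.3-fold lower at 6 weeks. Its level in WKY was -1.46, -1.59 and -1.63 at 3 weeks and -2.24, -1.87 and -2.11 at 6 weeks. It was -5.28, -5.49 and -5.89 in SHR at 3 weeks and -5.46, -5.40 and -5.89 at 6 weeks. In SHRSP it was -6.18, -5.84 and -6.08, then -7.23, -7.24 and -6.92. The SHRSP arrays at 6 weeks were the lowest of the 18 and overlapped with no other group, while SHR at both ages and SHRSP at 3 weeks overlapped in a row. As processed signal, Scn10a averaged 772 in WKY and 49.3 in SHR at 3 weeks and 17.3 in SHRSP at 6 weeks, still well above background on each array. The log2 differences from WKY were -3.99, -4.48, -3.51 and -5.06 (SE 0.17), and -2.87, -3.06, -2.39 and -2.96 with normexp background correction.

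SHRSP and SHR parted at 6 weeks. Scn10a was lower in SHRSP by -1.55 ± 0.17 (limma adjusted p = 3.86e-05), and the 2 slides with arrays of both groups gave -1.77 and -1.28. At 3 weeks the difference was -0.48 (95% interval -0.84 to -0.12, adjusted p = 0.101). Scn10a fell with age in SHRSP, by -1.10 ± 0.17 (adjusted p = 0.000258), but was at -0.03 in SHR (-0.39 to 0.33) and at -0.52 in WKY (-0.88 to -0.16, adjusted p = 0.0595). The change in SHRSP differed from that in SHR by -1.07 ± 0.24 (adjusted p = 0.01004). With normexp background correction these 3 log2 values were smaller, at -0.57 for SHRSP minus SHR at 6 weeks, -0.34 for the age change in SHRSP and -0.39 for the difference of changes, which was then no longer called (adjusted p = 0.0902).

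The other sodium channel genes did not share this pattern as a group. Of 19 tested, 3 were higher and 1 lower than in WKY in SHR and 2 and 3 in SHRSP at 3 weeks, and 3 and 4 in SHR and 4 and 4 in SHRSP at 6 weeks, with medians from -0.10 to 0.24. Scn9a and Scn11a, other channels of sensory neurons, passed in none of the 4, and Scn11a was well above background on 11 of 18 arrays. Scn4b, an accessory subunit, was higher in SHR at 6 weeks by 1.27 ± 0.11. Nedd4l, a ubiquitin ligase that removes channels from the membrane, was lower in SHRSP at 3 weeks by -0.76 ± 0.10. Of 15 markers of peripheral and sensory neurons, 12 were well above background on all arrays, and 1, 2, 2 and 1 were higher and 0 lower than in WKY in the 4 comparisons.

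Prss35, the protease-like gene, was at its furthest from WKY at 6 weeks. It was 8.20-fold lower in SHR and 19.6-fold lower in SHRSP than in WKY at 3 weeks, and 27.1-fold and 48.6-fold lower at 6 weeks. Its level in WKY was 0.93, 0.79 and 1.17 at 3 weeks and -1.03, -0.34 and -0.56 at 6 weeks. In SHR it was -2.09, -2.17 and -1.97 at 3 weeks and -5.98, -4.92 and -5.31 at 6 weeks, and in SHRSP -2.58, -3.21 and -4.20, then -6.37, -5.999 and -6.36. The 6 groups formed 6 steps with no overlap between neighbours, in the order WKY at 3 and 6 weeks, SHR and SHRSP at 3 weeks, SHR and SHRSP at 6 weeks. The log2 differences from WKY were -3.04, -4.29, -4.76 and -5.60 (SE 0.34). With normexp background correction they were -2.91, -3.95, -3.78 and -4.27.

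Prss35 fell with age in each strain, by -1.60 ± 0.34 in WKY (limma adjusted p = 0.00679), -3.33 ± 0.34 in SHR (adjusted p = 1.09e-05) and -2.92 ± 0.34 in SHRSP (adjusted p = 2.31e-05), where normexp background correction gave -1.84. In SHRSP it was lower than in SHR by -1.25 ± 0.34 at 3 weeks (adjusted p = 0.0343), where the SHRSP arrays ran from -4.20 to -2.58. This call was lost without SHR replicate 1, 2 or 3 or SHRSP replicate 2 or 3 at 3 weeks, with these 6 arrays alone and with no filter (adjusted p up to 0.133), and the difference was -0.82 without SHRSP replicate 3. At 6 weeks it was -0.84 (95% interval -1.56 to -0.12, adjusted p = 0.112). The age changes of SHRSP and SHR differed by 0.41 (-0.61 to 1.43).

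Of 14 trypsin-like proteases and plasminogen activators tested, 3 were higher and 1 lower than in WKY in SHR and 4 and 0 in SHRSP at 3 weeks, and 3 and 1 in SHR and 4 and 1 in SHRSP at 6 weeks. The medians of the list were 0.25, 0.25, 0.24 and 0.03. Plat, tissue plasminogen activator, was higher in all 4, by 2.40, 2.77, 2.11 and 2.22 (SE 0.33). Prss8, prostasin, an activator of the epithelial sodium channel, was lower at 6 weeks in SHR (-0.50) and SHRSP (-1.55), and lower in SHRSP than in SHR by -1.05 ± 0.17 (adjusted p = 0.00101). Prss23, the closest relative of Prss35 in the list, passed in none of the 4, with values of 0.39, 0.36, 0.10 and -0.03.

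Endog, the mitochondrial nuclease, differed from WKY by nearly the same amount at each age. It was 3.82-fold lower in SHR and 3.97-fold lower in SHRSP at 3 weeks, and 3.98-fold and 3.25-fold lower at 6 weeks. The Endog level in WKY was -0.51, -0.34 and -0.17 at 3 weeks and -0.06, -0.38 and -0.26 at 6 weeks. In SHR it was -2.47, -2.16 and -2.20, then -2.10, -2.17 and -2.40, and in SHRSP -2.45, -2.17 and -2.37, then -2.04, -1.82 and -1.94. The arrays fell into a WKY set and a set of both hypertensive strains, and within each set the ages lay close together. The log2 differences were -1.94, -1.99, -1.99 and -1.70 (SE 0.13).

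Of the 6 genes Endog was the only one with a called rise, of 0.40 ± 0.13 from 3 to 6 weeks in SHRSP (limma adjusted p = 0.0281). That call was lost without SHRSP replicate 1 or 3 at 3 weeks or replicate 2 or 3 at 6 weeks, and with the 6 SHRSP arrays alone (adjusted p up to 0.104). The changes in WKY and SHR were 0.11 (95% interval -0.16 to 0.38) and 0.05 (-0.22 to 0.32). SHRSP minus SHR was -0.05 at 3 weeks (-0.32 to 0.21) and 0.29 at 6 weeks (0.02 to 0.56, adjusted p = 0.142).

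Among 19 mitochondrial and apoptotic nucleases and genes of mitochondrial DNA upkeep, 1 was higher and 3 lower than in WKY in SHR and 4 and 2 in SHRSP at 3 weeks, and 4 and 3 in SHR and 3 and 2 in SHRSP at 6 weeks. Medians lay between -0.10 and 0.08. Polg2, the accessory subunit of the mitochondrial DNA polymerase, was lower in all 4, by -1.14, -1.07, -1.13 and -0.85 (SE 0.13), and Ppif, the pore regulator cyclophilin D, was higher in all 4 by 0.31 to 0.72. The deoxyribonuclease gene Dnase1 was higher in SHRSP at 3 weeks by 1.85 ± 0.31 but lower in SHR at 6 weeks by -0.96 ± 0.31. It was at -0.28 in SHR at 3 weeks and -0.38 in SHRSP at 6 weeks, neither called. Exog, the mitochondrial nuclease most like Endog in sequence, passed in none of the 4.

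Sbk2, the kinase, was read by 2 probes. At probe 1, which stood for the gene, it was 2.74-fold lower in SHR and 3.93-fold lower in SHRSP than in WKY at 3 weeks. At 6 weeks it was 7.98-fold lower in SHR and, against a floor, 24.8-fold lower in SHRSP. The last value uses a floor, because no SHRSP array at 6 weeks had the probe well above background. The floor is the higher, on each array, of the lowest signal well above background of any probe and the signal of this probe. It is set against the mean of WKY. It is not a limit for this spot, so 24.8-fold is not a smallest possible value. The level in WKY was -2.84, -2.97 and -2.90 at 3 weeks and -3.38, -3.37 and -3.30 at 6 weeks. In SHR it was -4.37, -4.31 and -4.40, then -6.72, -6.23 and -6.09. In SHRSP it was -4.62, -4.80 and -5.22 at 3 weeks, and the measured values at 6 weeks were -10.26, -9.48 and -8.63. The replicates of WKY at both ages and of SHR at 3 weeks lay close together, with SDs of 0.04 to 0.07, and the groups formed 6 steps without overlap. The log2 differences from WKY were -1.45, -1.98, -2.996 and, as measured, -6.11 (SE 0.29). With normexp background correction the last 2 were -1.66 and -2.29, the last smaller in size than the floor-based 4.63 on the log2 scale.

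With age Sbk2 fell in SHR by -1.99 ± 0.29 (limma adjusted p = 0.000224). In WKY the change was -0.44 (95% interval -1.07 to 0.18, adjusted p = 0.373), not called, although the WKY arrays of the 2 ages did not overlap. It was called with normexp background correction and with only the WKY arrays fitted (adjusted p down to 0.0151). The SE is shared by all 6 groups, and the SD was largest in SHRSP at 6 weeks, at 0.82. In SHRSP Sbk2 fell 8.59-fold against the same floor (measured -4.58 ± 0.29, limma adjusted p = 1.67e-07). Each adjusted p that involves SHRSP at 6 weeks belongs to the measured value, not to the floor-based one. It rests on signals not well above background there. At 6 weeks Sbk2 was, against the floor, 3.11-fold lower in SHRSP than in SHR (measured -3.11 ± 0.29, adjusted p = 1.25e-05). The measured values within a slide were -3.54 and -2.47 on the 2 slides with both strains. At 3 weeks the difference was -0.52 (-1.15 to 0.10). The fall with age was larger in SHRSP than in SHR by 2.17-fold against the floor (limma adjusted p = 0.00105, measured -2.59 ± 0.41). With normexp background correction this difference was -0.34, the age changes -0.86 in SHR and -1.20 in SHRSP, and SHRSP minus SHR at 6 weeks -0.63, all still called. Those that involve SHRSP at 6 weeks are smaller than the floor-based folds, so these folds are not smallest possible values.

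Probe 2 of Sbk2, which lay on the lower-coordinate side of probe 1, was dimmer and showed a smaller pattern. Its level was -5.34, -5.66 and -5.28 in WKY at 3 weeks and -5.97, -6.21 and -6.38 at 6 weeks. It was -6.55, -7.02 and -7.20 in SHR and -6.35, -6.84 and -6.76 in SHRSP at 3 weeks, then -7.42, -5.76 and -6.88 in SHR and -7.87, -7.77 and -6.87 in SHRSP. Of these arrays 2 of 3 were well above background in SHR at 3 weeks and 1 of 3 in SHR and in SHRSP at 6 weeks. The log2 differences from WKY were -1.50, -1.22, -0.50 and -1.32 (SE 0.35), and SHR overlapped with WKY at 6 weeks. The step between SHRSP and SHR at 6 weeks was -0.82 at this probe (adjusted p = 0.143), and the age change in SHR was 0.24, opposite in sign to probe 1.

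**Figure D2:**
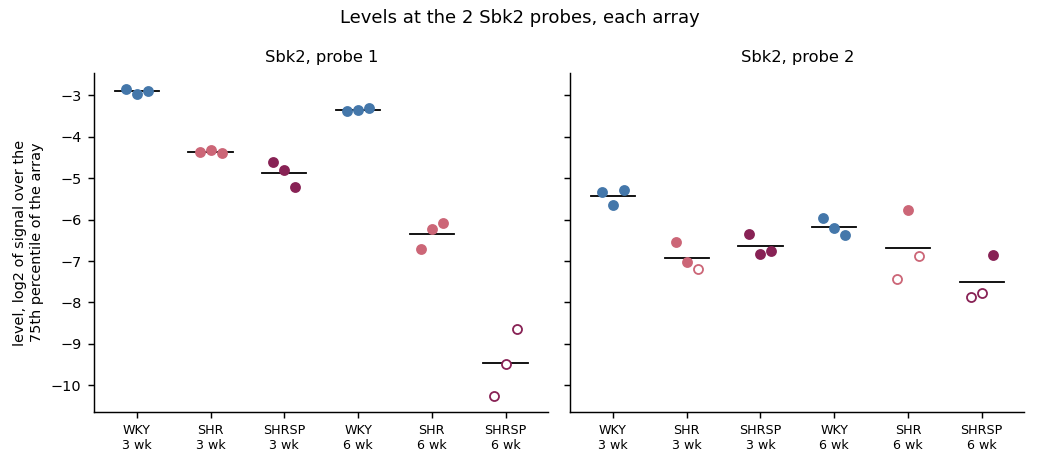
Level of Sbk2 at probe 1 and probe 2 (log2 of the signal over the 75th percentile of the array) on each array, with group means as lines and open symbols where the spot was not well above background. Probe 1 steps down to -10.26 to -8.63 in SHRSP at 6 weeks, while probe 2 lies between -7.87 and -5.28 in all 6 groups.

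Of the genes related to Sbk2 by family or by expression in atrial muscle, 8 were tested, and 1 was higher and 1 lower than in WKY in SHR and 2 and 1 in SHRSP at 3 weeks, and 1 and 2 in SHR and 2 and 1 in SHRSP at 6 weeks. Medians ran from 0.02 to 0.26. Its relative Sbk1 was lower by -1.04 in SHR and -0.77 in SHRSP at 3 weeks and by -0.44 in SHR at 6 weeks (SE 0.16), and was at -0.09 in SHRSP at 6 weeks. The atrial light chain gene Myl4 was higher at 6 weeks in both strains, by 1.03 and 0.95 (SE 0.09). Myh6, the atrial myosin heavy chain gene, was lower at 6 weeks by -0.90 in SHR and -1.74 in SHRSP (SE 0.24), and lower in SHRSP than in SHR (-0.84, adjusted p = 0.031). Tnni3, the cardiac troponin I gene, was higher at 3 weeks by 0.53 and 0.68 (SE 0.15). Of 11 cardiac and striated muscle markers 7 were well above background on all arrays, and Myl2 was on none.

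**Figure D3:**
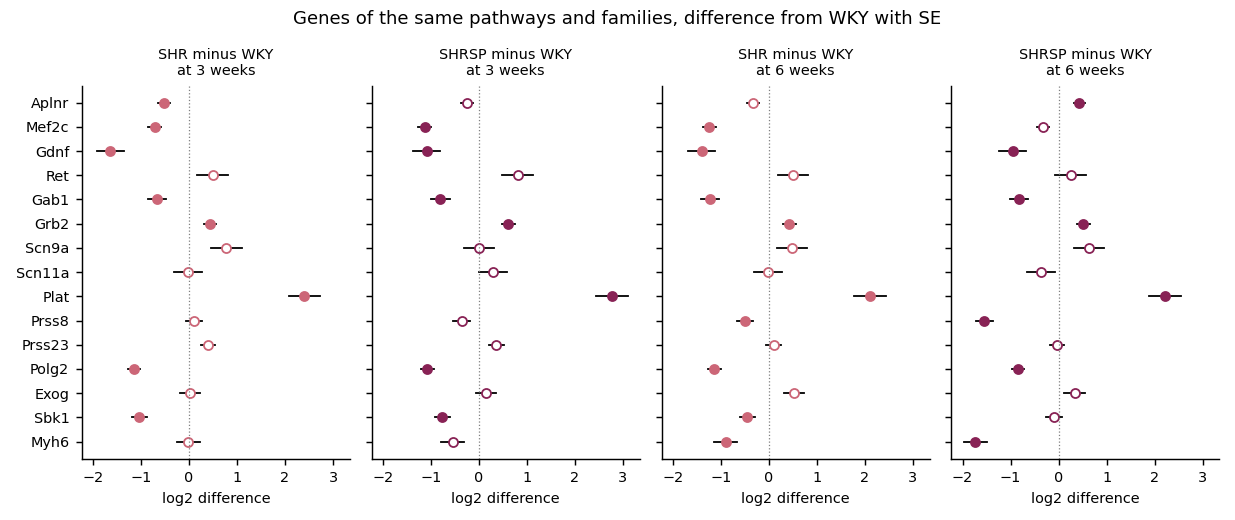
Log2 difference from WKY with SE for 15 genes of the pathways and families of the 6, in the 4 comparisons, filled where the limma adjusted p was under 0.05. Gdnf, Gab1 and Polg2 were lower in all 4 and Grb2 and Plat higher in all 4.

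The comparisons that did not choose the genes were tested, although they use the same arrays as those that did. Each pair of comparisons that has a group in common shares its arrays. Group means that helped to choose a gene also enter these tests, so their p-values are not free of the choice. Gfra1, whose fall in WKY was called, ranked 5 from the lowest difference from WKY in SHR at 3 weeks and 667 at 6 weeks. Sbk2 ranked 2 from the lowest in SHRSP at 6 weeks. Between SHRSP and SHR, 1 of 6 was called at 3 weeks, Prss35, lower in SHRSP, where 7.93% of all genes were called, 3.2% lower and 4.73% higher. At 6 weeks 2 of 6 were called, Scn10a and Sbk2, both lower in SHRSP, against 14.9% called, 8.21% lower and 6.74% higher. From 3 to 6 weeks 3 of 6 fell in WKY, Apln, Prss35 and Gfra1 (12.3% of all genes called, 7.17% lower and 5.15% higher). In SHR 3 fell, Apln, Prss35 and Sbk2 (29.3% called, 14.2% lower and 15.1% higher). In SHRSP 4 fell, Apln, Prss35, Scn10a and Sbk2, and 1 rose, Endog, against 29% called, 18.5% lower and 10.5% higher. The age change differed between SHRSP and SHR for 2 of 6, Scn10a and Sbk2 (11.9% called, 7.48% lower and 4.44% higher). The median of the 6 was -0.46 and -0.79 for SHRSP minus SHR at 3 and 6 weeks, and -0.99, -0.63 and -0.9996 for the age changes in WKY, SHR and SHRSP, where the medians over all genes were 0.09, -0.11, 0.02, 0.08 and -0.09.

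**Figure D4:**
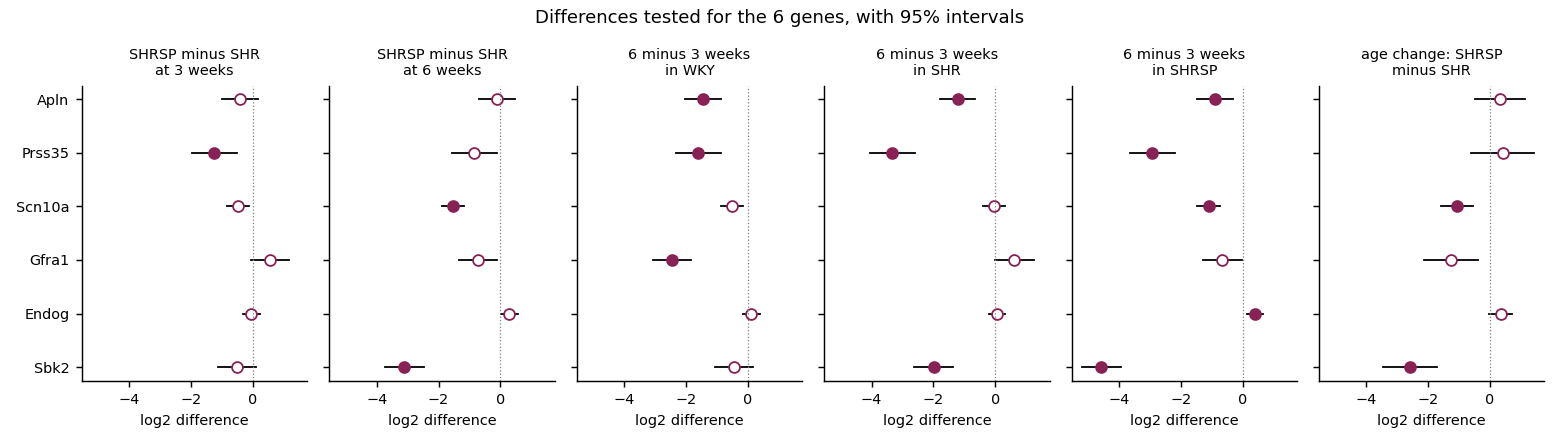
Log2 differences of the 6 genes in the 6 comparisons that were tested, with 95% intervals, filled where the limma adjusted p was under 0.05. Prss35 and Apln are filled in each of the 3 age comparisons, Gfra1 in WKY alone, and Sbk2 points that involve SHRSP at 6 weeks rest on signals not well above background there.

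Over the 18 arrays the levels of the 6 genes went together, with Pearson r from 0.55 (Endog and Sbk2) to 0.96 (Apln and Scn10a). These values are a description, since the strain difference that chose the genes is part of each of them. Within a strain, over 6 arrays of 2 ages, Apln and Prss35 stayed together in WKY (r = 0.95), SHR (0.98) and SHRSP (0.78), as did Prss35 and Sbk2 (0.96, 0.99 and 0.95). The change with age is part of each r within a strain, so these values do not measure how samples of the same age vary together. Sbk2 in SHRSP at 6 weeks was also not well above background. Against Apln, Endog gave -0.53, -0.17 and -0.79, Gfra1 0.90, -0.45 and 0.67, and Scn10a 0.96, -0.14 and 0.95, so that in SHR 3 of the genes had a negative r with Apln.

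The genes most like each of the 6 were taken by Pearson r over the 18 arrays among 13475 named genes. The gap to WKY that chose the 6 is part of each r, so the genes picked tend to be lower than in WKY too. Their differences from WKY are therefore a description. For Apln they were Phldb2, Arhgap12 and Gnpda2 (r = 0.97 each), whose differences from WKY ran from -1.31 to -0.74, far smaller than those of Apln. Prss35 was nearest to Papln (0.98), Rnf138 and Nrcam (0.97), and Nrcam, a neuronal adhesion molecule, stood at -1.89 in SHR and -2.31 in SHRSP at 6 weeks. Scn10a was nearest to the phosphatase gene Dusp19 (0.98), at -1.61 to -2.23, then Mrpl4 (0.98) and Ptpn4 (0.97). Endog was nearest to the interferon-induced gene Ifi44l (0.98), which differed by -2.63, -2.68, -2.91 and -2.36, and to Tst (0.97), the mitochondrial enzyme rhodanese, at -2.07, -2.03, -2.22 and -1.92, then Nat1 (0.97). Sbk2 was nearest to Ptprd, Sipa1l3 and Cnga1 (0.97 each), and Gfra1 to Homer2, Med10 and Mavs (0.92, 0.92 and 0.90).

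Next to the 6 genes on their chromosomes, some genes were also lower in the hypertensive strains. Up to 3 neighbours on each side gave 36 genes, of which 32 were tested, and 9 were lower than in WKY in SHR at 3 weeks, 12 in SHRSP at 3 weeks, 11 in SHR and 9 in SHRSP at 6 weeks, while 2, 2, 3 and 3 were higher. Neighbours were taken by gene order on GRCr8, and on rn4 some probes lay far off. The probe of Dcaf12l1, counted beside Apln and lower in both strains at 6 weeks, was 134208 kb away. That of Ablim1, counted beside Gfra1, was 1226 kb away. Among all genes 9.2%, 11.4%, 13% and 12.8% were called lower and 9.02%, 14.8%, 16.2% and 11.1% higher. The median of the 32 lay between -0.22 and -0.08. Beside Apln on the X chromosome, Ocrl, a lipid phosphatase gene 65.3 kb away, was lower in SHRSP at 3 weeks (-1.64), in SHR at 6 weeks (-1.08) and in SHRSP at 6 weeks (-2.01), with SE 0.20, and was also lower in SHRSP than in SHR at both ages (-1.14 and -0.94). Xpnpep2, an aminopeptidase gene 111 kb on the other side, was lower at 6 weeks by -2.37 and -2.50 (SE 0.69), and Zdhhc9 was lower in all 4 by -0.32 to -0.47. Beside Prss35, the malic enzyme gene Me1, 184 kb away, was lower in all 4, by -0.87 and -1.07 at 3 weeks and -2.02 and -2.24 at 6 weeks (SE 0.19), while Snap91, 15.8 kb away on the other side, was at -0.01 and 0.10 at 3 weeks and was higher in SHR at 6 weeks (0.47). Trub1, near Gfra1, was lower in all 4 by -0.84 to -0.98. Near Endog, Zdhhc12 was lower in all 4 by -0.54 to -1.28 and Phyhd1 higher in all 4 by 0.55 to 0.77. Near Sbk2, Zfp579 was lower in all 4 by -0.60 to -1.01.

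Within 1000 kb on each side of a probe, the gene at the centre had the difference furthest from 0 in each of the 4 comparisons. The 6 were chosen for large differences in these comparisons, which largely sets this outcome, so it is only a description. Gfra1 in SHR at 6 weeks, at -1.06 (SE 0.29), stood apart from Trub1 (-0.98) and Atrnl1 (-0.97) by less than its error. Counts of the other genes in these regions follow in the order SHR and SHRSP at 3 weeks, then at 6 weeks, and are to be read against the shares of all genes above. Around Apln 20 genes were tested, of which 3, 4, 7 and 7 were lower and 0, 0, 4 and 2 higher. The 17 around Prss35 held 4, 6, 4 and 3 lower and 0, 0, 1 and 0 higher. The 32 around Scn10a held 5, 9, 7 and 7 lower and 2, 6, 9 and 2 higher. Of the 6 around Gfra1, 2, 3, 3 and 2 were lower and 1, 1, 0 and 1 higher. Of the 40 around Endog, 8, 9, 6 and 9 were lower and 5, 6, 10 and 7 higher. Of the 42 around Sbk2, 2, 4, 5 and 4 were lower and 3, 6, 4 and 2 higher. The median of each region lay between -0.55 (Gfra1, SHR at 6 weeks) and 0.13 (Scn10a, SHR at 6 weeks).

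**Figure D5:**
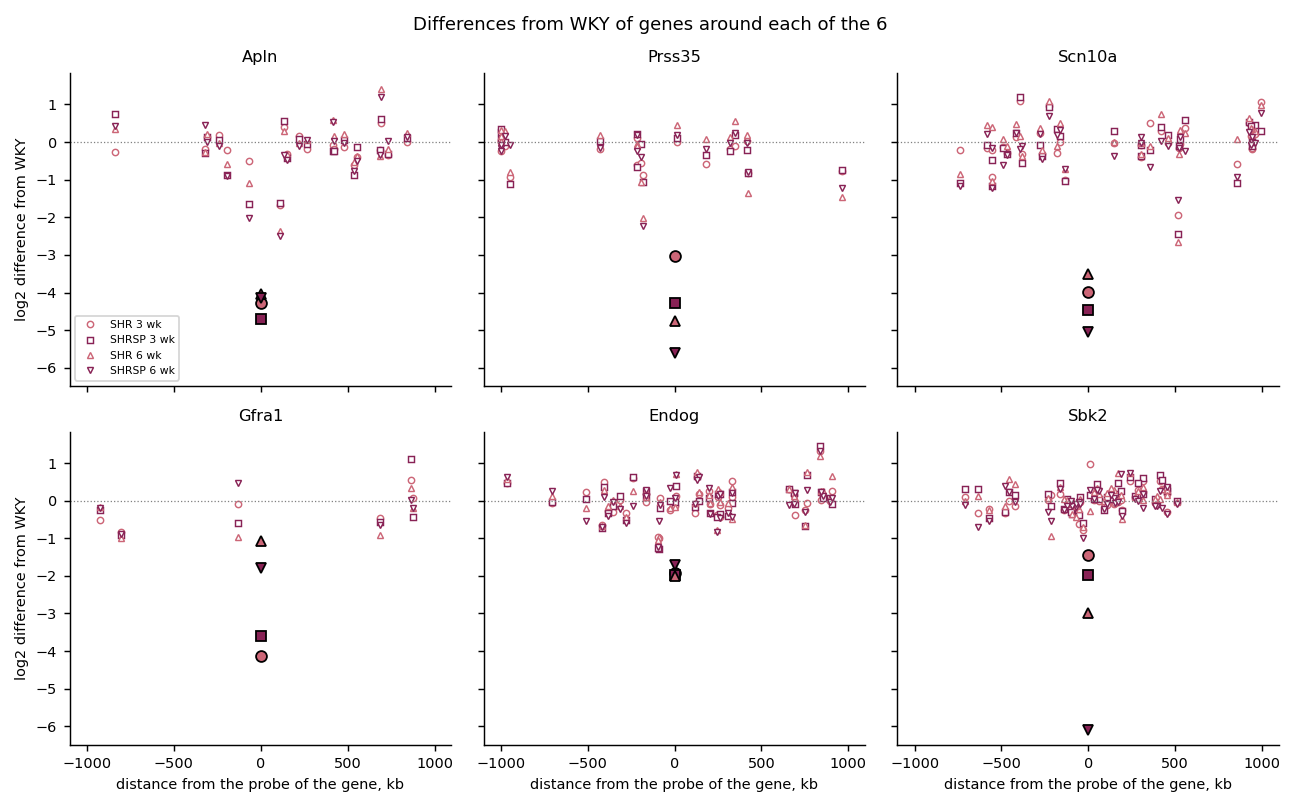
Log2 difference from WKY of each gene tested within 1000 kb of a probe of the 6, against the distance from that probe in kb on rn4, with one symbol per strain and age and the central gene filled. Away from the centre the lowest values are -2.50 near Apln, -2.24 near Prss35 and -2.66 near Scn10a. The central Sbk2 value for SHRSP at 6 weeks, -6.11, is the measured one, from signals not well above background.

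The promoters are shown for Apln, Scn10a and Endog, since genes that differ together between strains raise the question of shared upstream letters. The RefSeq table of the GRCr8 build held 5 of the 6 genes, each with 250 bases before and 50 after the start, and motifs were searched on both strands of these 300 bases. GGGCGG, the GC box, matched 2 times each in Apln, Gfra1 and Sbk2, 1 time in Endog and 0 times in Scn10a, and 33.1% of 33469 promoters hold it. CCAAT and ACGTG, the core of the hypoxia element, matched 1 time each in Endog and in none of the other 4 (37.5% and 19.3% of promoters), and AGGTCA, the core site of nuclear receptors, in Sbk2 alone (16.2%). TATAAA (the TATA box), TGACGTCA (the cAMP response element) and CACGTG (an E-box, which holds ACGTG) were in none of the 5 (14.2%, 1.83% and 6.42%). No motif was common to the 5. The 250 bases before the start are printed with matches in capitals, of either strand, for a promoter with paired GC boxes, one with none of the motifs, and one with 3 kinds.
Apln, GRCr8 chrX:132091247-132091496, minus strand: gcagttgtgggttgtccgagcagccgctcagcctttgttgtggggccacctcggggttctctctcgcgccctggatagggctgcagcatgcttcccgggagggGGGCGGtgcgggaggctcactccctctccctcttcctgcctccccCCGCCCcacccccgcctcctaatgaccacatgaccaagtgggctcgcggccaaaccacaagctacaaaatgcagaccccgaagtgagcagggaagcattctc
Scn10a, GRCr8 chr8:128340299-128340548, minus strand: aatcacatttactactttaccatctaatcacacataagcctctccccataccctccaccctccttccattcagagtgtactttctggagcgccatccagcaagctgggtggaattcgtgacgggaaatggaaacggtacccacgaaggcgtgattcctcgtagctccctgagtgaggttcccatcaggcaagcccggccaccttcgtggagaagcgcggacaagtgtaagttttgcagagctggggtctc
Endog, GRCr8 chr3:33846685-33846934, plus strand: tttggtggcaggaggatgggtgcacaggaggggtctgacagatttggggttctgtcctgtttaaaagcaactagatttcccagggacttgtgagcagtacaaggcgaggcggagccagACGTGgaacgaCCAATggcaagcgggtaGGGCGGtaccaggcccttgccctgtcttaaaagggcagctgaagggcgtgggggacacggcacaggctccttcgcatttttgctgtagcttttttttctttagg
A match is a run of letters only. The GC content of these 300-base promoters was 65% for Apln, 52.3% for Scn10a and 57.7% for Endog, against a median of 51.7% over all promoters.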

How the data were processed

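Adrenal RNA of 18 samples was hybridised to 18 one-colour Cy3 arrays of 44254 spots. The authors deposited processed signal intensities on a linear scale, read with Agilent Feature Extraction 10.5.1.1 per the file headers, and not normalized between arrays. The deposited series table held the same intensities (largest difference 0). From these, log2 of the signal minus each array's 75th percentile over non-control spots was computed, outlier spots were left out, repeat spots averaged, and the brightest probe stood for a gene. Genes well above background on all 3 arrays of a group were kept (20859). limma 3.58.1 in R 4.3.3 was fitted to 6 group means with 12 residual and 2.12 prior degrees of freedom, and a gene was called where its adjusted p (Benjamini-Hochberg, over all genes) was under 0.05, with ± as SE. Nothing beyond the labels says that samples came from separate rats, and p-values measure the spread between these samples. The scan headers name 5 slides and 3 scan days, and each slide held arrays of 2 or more groups. They were not balanced: a slide held SHRSP arrays only, and another, the only one of its scan day, held 6-week arrays only. Slide was not in the main fit, and as a random block it had a correlation of 0.36. Pairing by replicate number was checked: of 45 same-number pairs of samples, 13 had deviations correlated over 0.1 (median r 0.03), so numbers do not pair samples. The 6 genes, the related-gene and marker lists and the rules for naming were chosen with earlier results of these data known. Named beside the 6 are up to 4 genes per related list with the smallest adjusted p, direct partners, the 3 genes most alike, and up to 3 neighbours per side by gene order in the RefSeq table (GRCr8). A gene that this rule names is not reported here.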

Additional observations from a re-analysis of the deposited data

Results flagged for a closer look

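The age effects of 2 genes differed between the hypertensive strains by a test of the difference itself. Scn10a changed from 3 to 6 weeks by -1.10 in SHRSP and -0.03 in SHR, a difference of -1.07 ± 0.24 (limma adjusted p = 0.01004), with all 3 SHRSP arrays at 6 weeks below all others. With normexp background correction this difference was -0.39 and no longer called (limma adjusted p = 0.0902). At probe 1, Sbk2 fell in both, with a measured difference of -2.59 ± 0.41 (limma adjusted p = 0.00105), though no SHRSP array at 6 weeks was well above background. Against the floor used for such signals it was 2.17-fold, and with normexp background correction it was -0.34. At probe 2 of Sbk2 the difference was -1.09 ± 0.50 (adjusted p = 0.17).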

How the results depend on the processing

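The number of genes without overlap with WKY was 6 in each comparison and with each array left out, and 5 to 6 under the other 13 alternatives, where the filter on all 18 arrays removed Sbk2. For SHRSP minus SHR at 3 weeks, 1 gene was called, against 2 with normexp, 0 with no filter and 0 with only the groups compared, and 0 to 1 with an array left out. At 6 weeks 2 were called, against 1 with the filter on all 18 arrays, and 2 to 3 with an array left out. The count of age changes in WKY was 3, against 5 with normexp, and 3 to 4 with an array left out, in SHR 3 to 4 and in SHRSP 3 to 6. Without SHRSP replicate 3 at 3 weeks or replicate 2 at 6 weeks, 3 genes were called there against 5. The difference of age changes held 2 genes, against 1 with the filter on all 18 arrays, 3 at most under the other alternatives (with Gfra1), and 2 to 3 with an array left out. With normexp the 2 were Sbk2 and Gfra1, as Scn10a was no longer called (limma adjusted p = 0.0902). Values that changed sign were near 0 and uncalled. Endog, SHRSP minus SHR at 3 weeks, ran from -0.15 to 0.0067 with an array left out. Apln, SHRSP minus SHR at 6 weeks, was 0.14 with slide as a block, 0.10 with scan day and 0.030 with slide as a random block, and ran from -0.30 to 0.092 with an array left out. Scn10a with age in SHR was 0.052 with normexp and 0.0024 with quantile normalization, and ran from -0.20 to 0.12. Endog with age in SHR was -0.025 with the percentile over probes well above background on all arrays, and ran from -0.042 to 0.14. Prss35 in the difference of age changes ran from -0.025 to 0.79. The cause was not tested.

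Replicate numbers do not pair the samples. With the replicate block the counts were 1 and 2 for SHRSP minus SHR, 3, 3 and 5 for age and 2 for the difference of age changes, and 6 without overlap in each comparison with WKY, the same as without it.

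Signals near background limit Sbk2, Gfra1 and Scn10a most. Normexp brought their differences closer to 0, and the 18 arrays limit the precision of each value.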
